A study of Homo sapiens with 18 samples.

Results

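The SpCas9 adenine base editor, SpABE, was compared between a guide RNA at the acceptor side of NRF1 exon 7 and a guide at an intergenic site. This comparison holds 6 of the 18 libraries of the series, 3 per guide, chosen by their labels, and 17743 of the 58870 genes in the deposited table had enough counts to be tested. All libraries came from HEK293T cells, a human embryonic kidney line. Per the labels and the methods, 750000 cells were transfected with editor and guide and selected with puromycin for 48 hours, and polyadenylated RNA was collected at 72 hours. Both SpABE groups carried the adenine deaminase ABE8e on the Streptococcus pyogenes Cas9 nickase. The other 12 libraries carried SaABE, with that deaminase on the Staphylococcus aureus nickase, or SpCBE, with evoCDA1, a cytosine deaminase, on the nickase of S. pyogenes. Each editor had its own NRF1 guide, and per the study's guide list SpCBE used the same intergenic guide as SpABE. The cells were a transiently transfected, selected population and not a clone. Gene counts do not show how many alleles were edited or how often exon 7 was skipped, so editing was not analysed here.

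NRF1 is a transcription factor that binds GC-rich palindromic elements near the start of many housekeeping genes, among them genes for mitochondrial respiration, DNA repair and the cell cycle. An adenine base editor deaminates adenine to inosine, which is read as guanine, within a stretch of the protospacer set by the guide. Changing the conserved AG at the end of an intron can keep the spliceosome from using the following exon. Immediate-early genes, a second group that recurs below, are genes that growth factors and stress switch on within a short time without new protein synthesis.

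The guide sequences are shown because the whole comparison rests on them. In the NRF1 guide the capitals mark bases of exon 7 and the lower-case letters bases of the intron before it.
NRF1 guide: gtgacagGTTTCATGGACCC
intergenic guide: ttgactgcacacaactgggc
On hg38 the NRF1 guide matched chr7:129710367-129710386 on the plus strand, next to the PAM AGG, and the intergenic guide matched chr13:102967577-102967596 on the plus strand, next to the PAM TGG. Each had 1 perfect match with a PAM in the genome. The NRF1 guide covered 7 intron bases and 13 exon bases, and the nearest annotated gene to the intergenic site lay 63577 bases away. Counted from the 5′ end, adenines stood at positions 4, 6, 13 and 17 of the NRF1 guide. The adenine at position 6 is the A of the splice acceptor, marked by capitals in the 30 bases around it (chr7:129710359-129710388, plus strand).
acceptor of exon 7: gtcatttggtgacAGgtttcatggacccag
Exon 7 has 198 bases and lies at chr7:129710374-129710571, the exon numbered 7 of 11 in the annotated transcript.

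Estimated counts per library ranged from 33934566 to 39914440 in SpABE and from 28101094 to 40687447 in all 18 libraries. The messages of the mitochondrial genome took 0.977% to 1.16% of counts in SpABE and the 10 most abundant genes 4.59% to 5.17%. All 8 markers that HEK293T cells express were above 1 CPM (counts scaled to a common library total, here without TMM) in every SpABE library. Below 1 CPM in all of them lay 6 of the 9 markers of blood, 5 of the 9 of fibroblasts and 4 of the 7 of epithelium. Above 1 CPM in all of them lay 3, 2 and 2 of these markers. They included COL6A1 (65.3 to 85.5 CPM) and COL1A1 (18.1 to 20.5 CPM) of fibroblasts and CDH1 (4.36 to 6.54 CPM) of epithelium. All other CPM levels were scaled by TMM to a common library total. In a principal component analysis of the 6 libraries, the axis with 38.5% of the variance separated the guides. Whether the 3 libraries of a group were grown as separate cultures is not in the labels. The p-values therefore cover the spread among these libraries alone, and that spread may be technical.

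NRF1 itself, the targeted gene, was measured first. Its level was 26.7, 28.8 and 28.5 CPM with the intergenic guide and 35.7, 37.5 and 41.6 CPM with the NRF1 guide. The groups did not overlap, and the level was higher, not lower, with the guide (log2 fold change 0.45, SE 0.054, edgeR adjusted p = 3.82e-07). That is below the fold of 0.5 on the log2 scale required of a called gene, although without NRF1-guide replicate 1 it was 0.5003. The log2 fold changes with SaABE and SpCBE were 0.32 and 0.69, and neither difference from SpABE passed the test. An exact two-sided permutation test over the 6 SpABE libraries gave p = 0.1, the smallest p that 3 against 3 libraries allow.

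With SpABE 1137 genes were called, with an adjusted p below 0.05 and a log2 fold change beyond 0.5 in either direction, which was 6.41% of genes tested. Of these 834 fell, 4.7% of genes tested, and 303 rose, 1.71%. The median log2 fold change over all genes tested was -0.0015. The falls had a median of -0.77 and 240 of them passed a log2 fold change of 1, while the rises had a median of 0.80 and 85 passed it. Among the called genes 684 of the 834 falls and 187 of the 303 rises were protein coding, against 14296 of the 17743 genes tested. Long noncoding RNAs made up 94 falls and 60 rises against 2062 genes tested, and pseudogenes 44 and 47 against 1102. In 812 of the 834 falls and 285 of the 303 rises the 3 NRF1-guide libraries did not overlap the 3 intergenic-guide libraries. Over all 17743 genes tested, 4042 lay lower and 3846 higher without overlap. A call makes such a gap likely, so these counts are no separate support for the calls.

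The largest falls were picked among called genes of at least 5 CPM whose groups did not overlap. They included cilium, DNA replication and mitochondrial genes. BBS2, a subunit of the BBSome that carries membrane proteins to the cilium, had 25.8, 26.1 and 24.3 CPM with the intergenic guide and 5.48, 5.84 and 5.50 CPM with the NRF1 guide. It fell furthest of the named genes, with a wide gap between the groups (log2 fold change -2.18, SE 0.075, edgeR adjusted p = 5.7e-17). N6AMT1, a methyltransferase, went from 20.9, 20.5 and 19.6 CPM to 4.59, 5.45 and 4.76 CPM, a log2 fold change of -2.05. ADCY1, an adenylyl cyclase, went from 28.5, 29.2 and 30.2 CPM to 7.30, 7.21 and 7.35 CPM, a log2 fold change of -2.01. VASH1, a vasohibin that removes the end tyrosine of tubulin, went from 34.7, 35.3 and 36.4 CPM to 8.21, 10.1 and 10.5 CPM. In each of these 4 genes the groups lay far apart.

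POLA2, the second subunit of the DNA polymerase alpha complex that starts DNA strands, went from 64.6, 72.9 and 72.7 CPM to 23.4, 18.4 and 21.3 CPM (log2 fold change -1.74). DNA2, a nuclease and helicase of DNA replication and repair, had 39.8, 42.6 and 38.7 CPM and then 12.7, 12.8 and 12.8 CPM (log2 fold change -1.66). MRS2, a magnesium channel of the inner mitochondrial membrane, had 96.6, 98.7 and 101.7 CPM and then 32.2, 30.9 and 30.8 CPM (log2 fold change -1.66, SE 0.035). These genes had tight groups that stayed far apart. YEATS4, a reader of acetylated histones, fell by 1.67 on the log2 scale, from 32 to 34.2 CPM down to 10.1 to 10.8 CPM. ANKRD26, an ankyrin repeat protein, fell by 1.61 and PUDP, a pseudouridine phosphatase, by 1.44. PUDP went from 14.1, 15.02 and 14.4 CPM to 5.50, 5.18 and 5.32 CPM. The other named falls were PTPN3, a tyrosine phosphatase (-1.67), ATP6V0E2, part of the vacuolar proton pump (-1.59), SAYSD1 (-1.58), PCCB, a subunit of propionyl-CoA carboxylase (-1.54), TBC1D24 (-1.53) and RABIF, which binds Rab GTPases (-1.53). All of them passed the edgeR test, with adjusted p from 1.5e-20 to 4.61e-13.

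**Figure D1:**
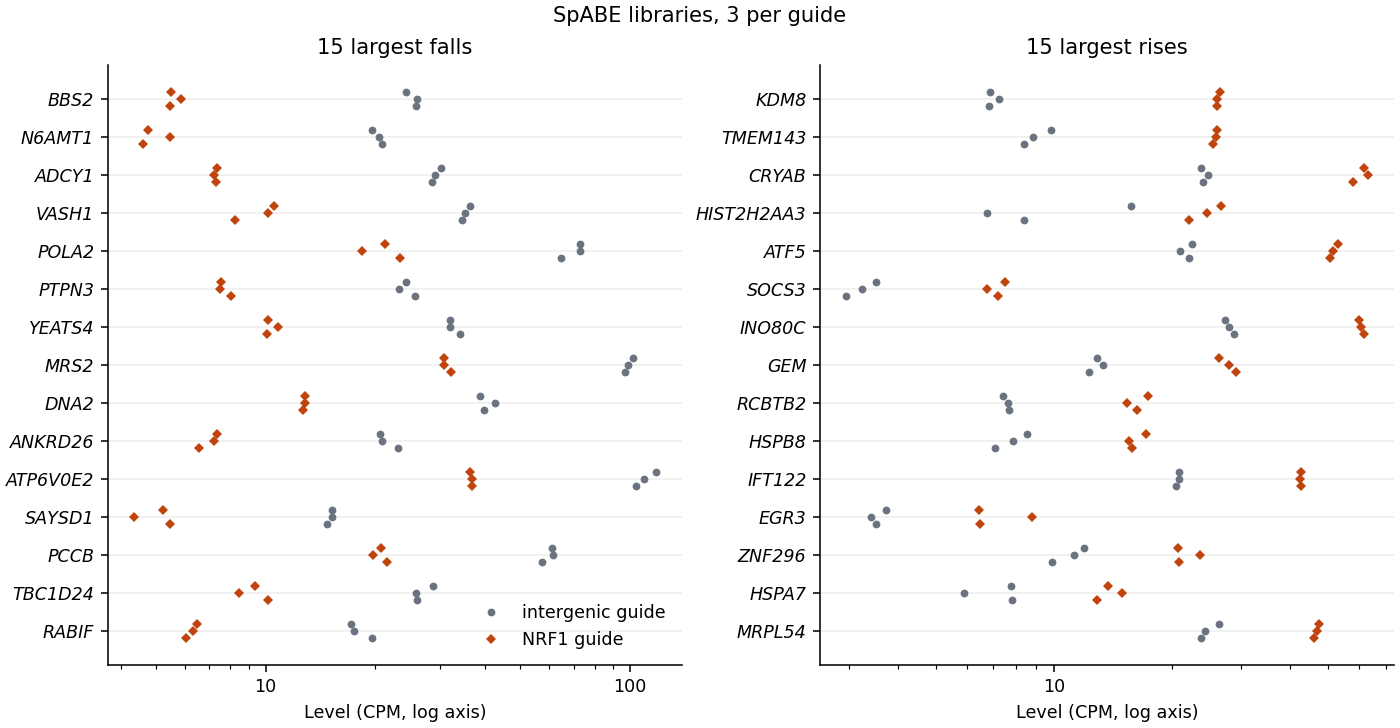
Level in CPM on a log axis of the 15 largest falls and 15 largest rises in SpABE, 1 symbol per library, circles for the intergenic guide and diamonds for the NRF1 guide. Rows were picked among called genes whose groups did not overlap, so in every row the diamonds lie on one side of the circles. The rows run from BBS2 (5.48 to 5.84 against 24.3 to 26.1 CPM) to MRPL54 (46.1 to 47.3 against 23.7 to 26.3 CPM), and HIST2H2AA3 has the widest spread.

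The falls were largely shared with the other editors. Of the 834 genes that fell with SpABE, 540 were also called lower with SaABE (64.7% of the SpABE falls and 63.2% of the SaABE falls) and 489 with SpCBE (58.6% and 76.4%). In all 3 editors 449 were called lower, and 254, or 30.5%, were called lower in neither other editor. The median log2 fold change of the 834 genes was -0.68 in SaABE and -0.60 in SpCBE. All 15 named falls were called lower with both other editors, for example BBS2 at -2.57 and -2.29, VASH1 at -1.88 and -1.62, and DNA2 at -1.40 and -1.44.

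The rises were shared less widely by count. Of 303 genes, 58 were also called higher with SaABE (19.1% of the SpABE rises and 26.4% of the SaABE rises) and 53 with SpCBE (17.5% and 35.6%). In all 3 editors 39 were called higher, and 231, or 76.2%, were called higher in neither other editor. The median log2 fold change of the 303 genes was 0.24 in SaABE and 0.15 in SpCBE. These genes were chosen on their SpABE values, and a call missed in another editor is not a tested difference. The direct tests of the difference are given further on.

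The promoters of the falls were searched for the NRF1 element, GCGCATGCGC or GCGCACGCGC on either strand, from 500 bases before to 100 bases after the annotated start (GENCODE 44 on hg38). The first is its own reverse complement, and on the other strand the second reads GCGCGTGCGC. The element stood in 171 of 831 promoters of genes that fell, or 20.6%, in 968 of 17611 promoters of all tested genes, or 5.5%, and in 1.97% of the promoters of all annotated genes. It stood in 8 of 301 promoters of genes that rose, or 2.66%. The share was much the same for small and large falls, at 21% for log2 fold changes from -1 to -0.5, 19.3% from -1.5 to -1 and 20.8% below -1.5. Genes called lower in all 3 editors had it in 25.7% of promoters, and genes called lower with SpABE alone in 9.88%. These shares are descriptions, and a match is not a binding site.

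**Figure D2:**
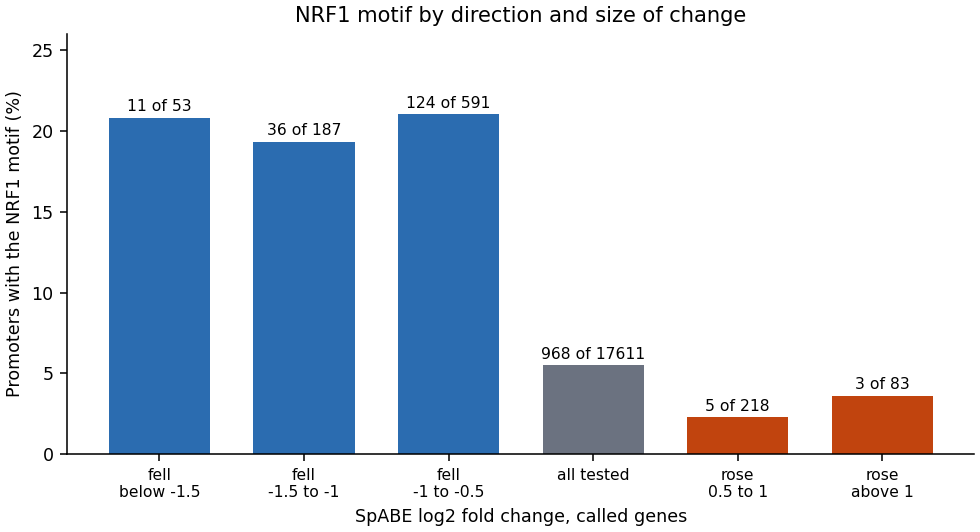
Percent of promoters that hold the NRF1 element, for genes called with SpABE grouped by log2 fold change and for all genes tested, with the promoters counted above each bar. The 3 bars of genes that fell stand at 19.3% to 21%, the bar of all genes tested at 5.5%, and both bars of genes that rose below 4%.

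Among the 15 largest falls 8 had the element, against 0 of the 14 largest rises with an annotated promoter. The stretches of 30 bases below are the promoter sequence of 4 of these falls on the strand of the gene, with the element in capitals, as it stood close to the start in each.
VASH1: gggggacggaGCGCATGCGCggcgcgggcc
DNA2: ctgcgggttgGCGCATGCGCgcgaggtgcg
ANKRD26: catctgaggtGCGCATGCGCacttgtgtct
N6AMT1: cgcacgccctGCGCACGCGCatggaacgca
They lie at chr14:76761445-76761474 on the plus strand for VASH1, and on the minus strand at chr10:68471958-68471987 for DNA2, chr10:27100489-27100518 for ANKRD26 and chr21:28885356-28885385 for N6AMT1. BBS2 and MRS2, among the largest falls, had no match in this window.

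The 15 largest rises, picked by the same rule as the falls, fell into genes that moved alike in all editors and genes that differed. KDM8, a Jumonji-domain hydroxylase, rose furthest. It had 6.83, 7.22 and 6.86 CPM with the intergenic guide and 26.1, 26 and 26.5 CPM with the NRF1 guide, 2 tight groups far apart (log2 fold change 1.91, SE 0.081, edgeR adjusted p = 2.93e-15). With SaABE and SpCBE its log2 fold changes were 1.86 and 1.97. TMEM143 rose by 1.52 (1.47 and 1.502 in the others), and INO80C, part of the INO80 chromatin remodeller, by 1.12 (1.20 and 1.17). IFT122, part of the complex that returns cargo from the tip of the cilium, rose by 1.04 (1.14 and 0.98), and MRPL54, a mitochondrial ribosomal protein, by 0.92 (0.94 and 0.93). RCBTB2 rose by 1.11 (0.84 and 0.93), and ATF5, a transcription factor of the integrated stress response, by 1.24 (0.79 and 1.11). Of these 7 genes ATF5 alone had a difference from another editor at an adjusted p under 0.05, a log2 difference of 0.46 from SaABE that is below the fold threshold.

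The other rises were CRYAB, SOCS3, GEM, HSPB8, EGR3, ZNF296, HSPA7 and HIST2H2AA3. The first 7 differed from both other editors and are described below. HIST2H2AA3, a histone H2A gene with a near-identical copy whose reads the counting could divide, had 8.41, 6.75 and 15.7 CPM and then 22.04, 24.5 and 26.6 CPM. Its intergenic-guide libraries spread widely (log2 fold change 1.252, SE 0.43, edgeR adjusted p = 0.0284). The call was lost in DESeq2 (adjusted p = 0.384), without intergenic-guide replicate 1 or 2 (log2 fold change 1.13 and 1.02) and without NRF1-guide replicate 2 or 3 (1.249 and 1.184).

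What was particular to SpABE was tested as the difference of its log2 fold change from that of each other editor, with the same limits on adjusted p and on the log2 difference. The editors share no library, since each has its own intergenic-guide libraries. The effect differed from SaABE for 277 genes, 1.56% of genes tested, and from SpCBE for 253 genes, 1.43%. It differed from both, in the same direction, for 76 genes, or 0.428%. Of these 51 lay above both (0.287%) and 25 below both (0.141%). Of the 51 genes 46 were called higher with SpABE, and of the 25 genes 18 were called lower. These counts depend on the tool and the filter, with 135 genes differing from both and 420 from SaABE with no filter beyond 1 count, and 179 from SaABE in DESeq2. The direct test placed 46 of the 303 rises and 18 of the 834 falls outside both other editors. The NRF1 element stood in 1 of the 51 promoters and in 0 of the 25.

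**Figure D3:**
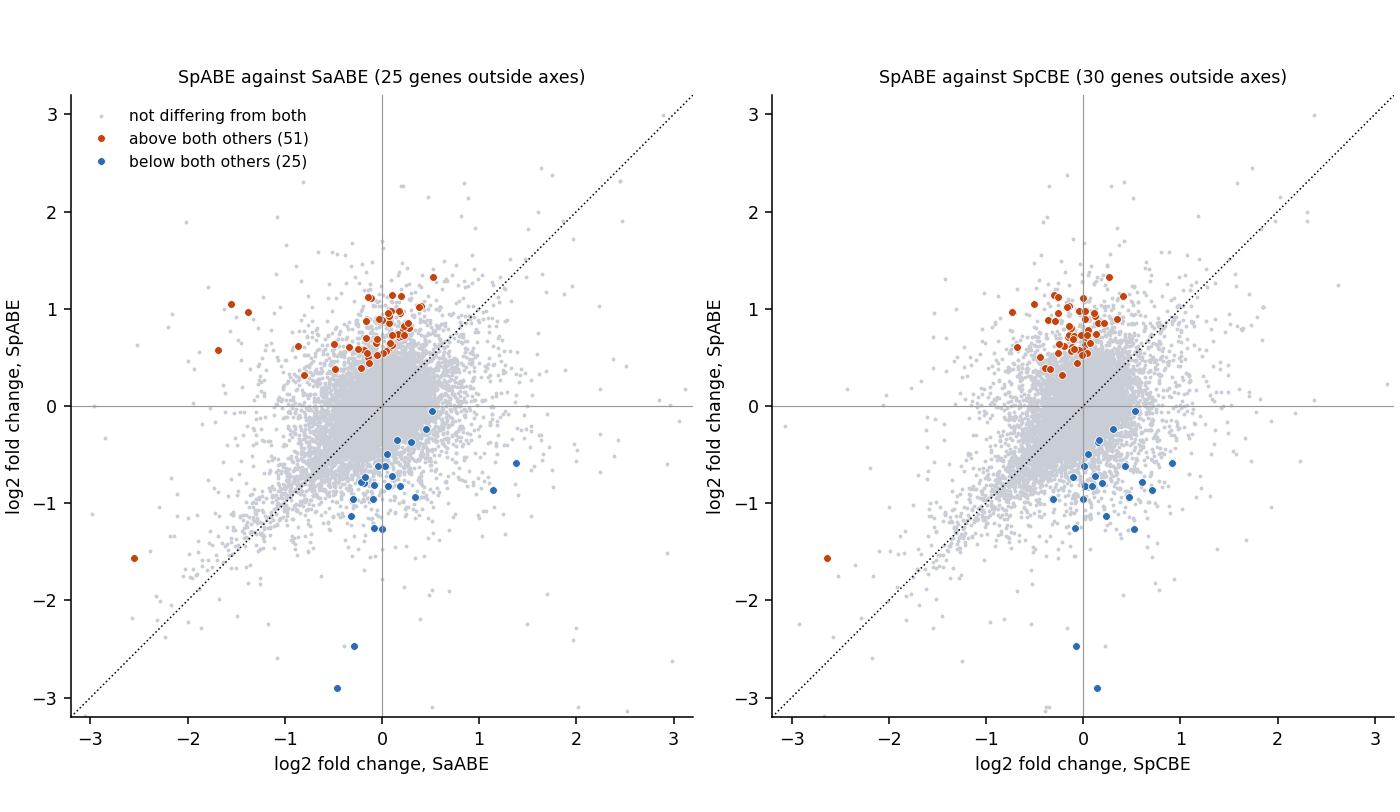
Log2 fold change of every tested gene with SpABE against that with SaABE and with SpCBE, with a dotted line where both are equal, 51 genes above both other editors in red and 25 below both in blue. Most red points lie between 0.5 and 1.2 on the SpABE axis and near 0 on the other, and 25 and 30 genes fall outside the axes.

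The 8 genes furthest above both other editors were HSPB8, GEM, SOCS3, DUSP5, TMEM179, SH2D3C, HMOX1 and TMEM183B. HSPB8, a small heat-shock protein that works with BAG3, had 7.06, 7.88 and 8.56 CPM with the intergenic guide and 15.8, 15.6 and 17.2 CPM with the NRF1 guide. It rose with SpABE (log2 fold change 1.05) and fell with SaABE (-1.56) and SpCBE (-0.50). The log2 difference was 2.60 (SE 0.11, edgeR adjusted p = 1.53e-13) from SaABE and 1.55 (SE 0.11, edgeR adjusted p = 1.63e-09) from SpCBE. Its control level was lower in SpABE, by a log2 difference of -1.08 from the SaABE control, where it stood at 16.2 to 16.9 CPM.

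HMOX1, haem oxygenase, which breaks down haem under oxidative stress, had 79.6, 89.7 and 89.0 CPM and then 158.4, 161.5 and 158.8 CPM (log2 fold change 0.89, SE 0.037, edgeR adjusted p = 2.11e-15). With SaABE its levels overlapped between the guides (89.7 to 91.1 and 87.9 to 94.7 CPM, log2 fold change -0.00019, adjusted p = 0.999), and with SpCBE it passed the test at a lower level with the NRF1 guide (-0.36). Its SpABE control was close to that of SaABE, with a log2 difference of -0.066, and below that of SpCBE, with -0.43. GEM, a small GTPase induced by mitogens, had 12.3, 13.4 and 12.8 CPM and then 29.1, 27.9 and 26.3 CPM, a rise of 1.11 on the log2 scale. With SaABE and SpCBE GEM stayed between 8.50 and 11.3 CPM in all 12 libraries, and its SpABE control was above theirs by log2 differences of 0.32 and 0.46. GEM and HMOX1 are cases where the NRF1-guide libraries of SpABE lie above all other 15 libraries.

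SOCS3, a feedback inhibitor of cytokine receptors, had 2.96, 3.25 and 3.51 CPM and then 7.19, 6.76 and 7.52 CPM (log2 fold change 1.14, SE 0.11, edgeR adjusted p = 6.5e-09). Its log2 difference was 1.04 from SaABE and 1.44 from SpCBE, and its control was lower than the SaABE control by a log2 difference of -0.77. DUSP5, a phosphatase that turns off the kinase ERK, had 6.80, 6.05 and 6.52 CPM and then 12.3, 11.8 and 11.3 CPM (0.87). Its log2 fold changes with SaABE and SpCBE were -0.17 and -0.29, and its control was lower than theirs by log2 differences of -0.53 and -0.26. SH2D3C, a signalling adaptor, rose from 2.09 to 2.58 CPM to 3.47 to 3.62 CPM (0.61), with -0.34 and -0.68 in the others. Its control was lower than the SaABE control by a log2 difference of -1.64. With SaABE its mean was 7.29 CPM and then 5.78 CPM, above both SpABE groups.

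Of the remaining 2 of the 8 largest, TMEM183B, an intronless copy of another gene whose reads are uncertain, rose by 0.64. TMEM179 fell in all 3 editors but less with SpABE, at a log2 fold change of -1.56 against -2.55 and -2.63. Its libraries held 3.27, 3.43 and 3.46 CPM and then 1.37, 0.804 and 1.24 CPM, so it lies above both others without having risen. Its difference from SaABE lost the call without NRF1-guide replicate 1 (log2 difference 0.84) or 3 (0.92).

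**Figure D4:**
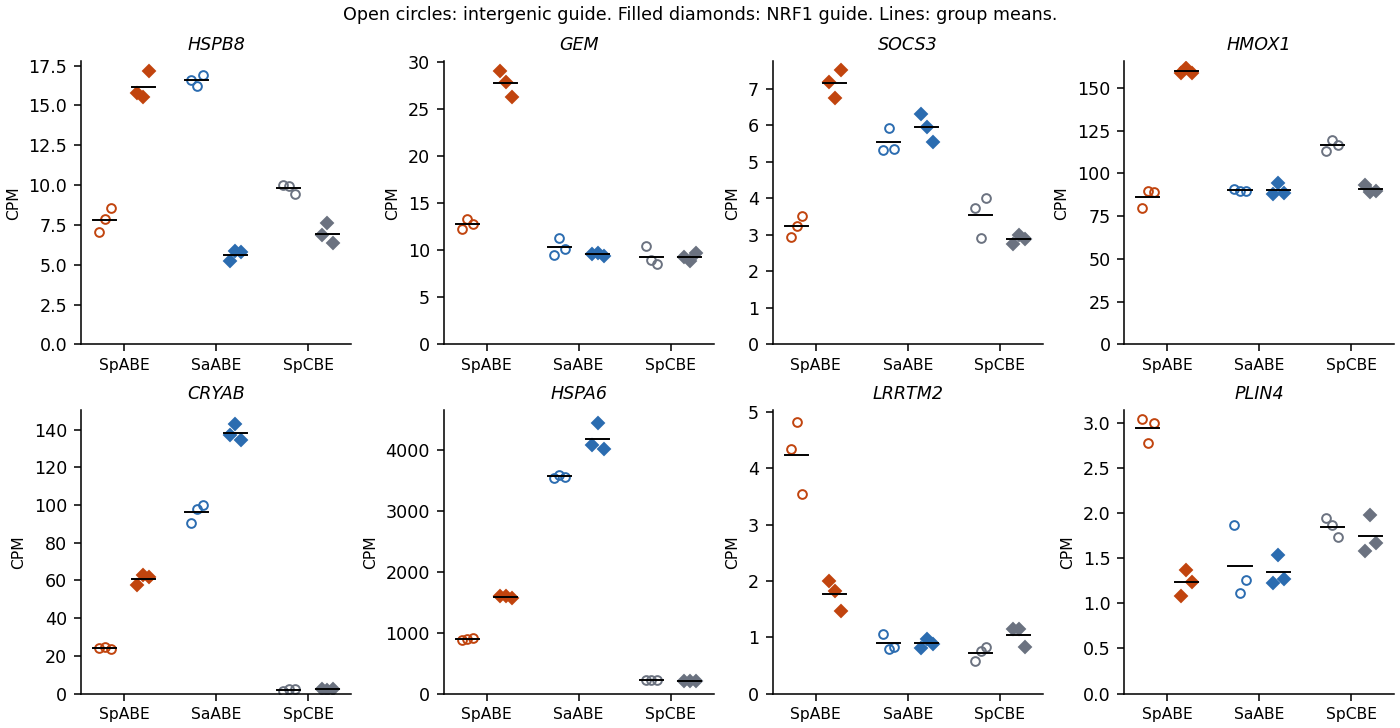
Level in CPM of 8 genes in each of the 18 libraries, open circles for the intergenic guide, filled diamonds for the NRF1 guide and lines for group means, with axes from 0. HMOX1 and GEM rise in SpABE to above the other 15 libraries, while CRYAB and HSPA6 have controls that differ widely between editors (24.2, 96.2 and 2.02 CPM for CRYAB).

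CRYAB, the alpha-B crystallin chaperone, had 24.0, 24.7 and 23.7 CPM and then 57.7, 63.1 and 61.7 CPM (log2 fold change 1.33, SE 0.053, edgeR adjusted p = 8.75e-16). It rose with SaABE too (0.52) and had a log2 fold change of 0.27 with SpCBE. Its control level in SpABE was lower than in SaABE by a log2 difference of -1.99 and higher than in SpCBE by 3.57. HSPA6, a heat-inducible HSP70 chosen here after its values were seen, had 876.8, 896.0 and 915.0 CPM and then 1597, 1596 and 1564 CPM, a log2 fold change of 0.82. Its libraries stood at 3538 to 4436 CPM with SaABE and 199.3 to 228.5 CPM with SpCBE over both guides. HSPA7, a near-identical pseudogene of HSPA6 on chromosome 1 whose reads may be shared with it, rose by 0.95. EGR3, a growth-factor induced transcription factor, rose by 1.02 and ZNF296, a zinc finger protein, by 0.98. The SpABE control of EGR3 was lower than that of SaABE by a log2 difference of -0.975 and higher than that of SpCBE by 0.499.

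The controls differed between editors in many of these genes. The SpABE intergenic level was called different from the SaABE intergenic level for 1248 genes, 7.03% of genes tested, and from the SpCBE intergenic level for 1098 genes, 6.19%. Among the 76 genes these numbers were 43 and 30, with 24 called in neither control comparison and 21 in both. Of the 51 genes above both, 7 had an SpABE control called lower in both control comparisons. Of the 25 below both, 7 had a control called higher in both. Controls could also be lower than both others without both calls. The mean control of HSPB8 was 7.83 CPM against 16.59 with SaABE and 9.81 with SpCBE, and that of DUSP5 6.46 against 9.32 and 7.73. That of GEM was above both (12.83 against 10.31 and 9.32 CPM). An effect and a control level share the same intergenic libraries, so the part of the control level in these differences cannot be told apart from the effect of the NRF1 guide.

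The genes furthest below both other editors were low in level. LRRTM2, a synaptic adhesion protein, had 4.33, 4.82 and 3.54 CPM and then 1.996, 1.82 and 1.47 CPM (log2 fold change -1.27, SE 0.16, edgeR adjusted p = 1.18e-06). Its log2 fold changes with SaABE and SpCBE were 0.0030 and 0.53, and its SpABE control was above theirs by log2 differences of 2.25 and 2.55. With the NRF1 guide it thus stood nearer to the 0.583 to 1.15 CPM of the other editors. PLIN4, a coat protein of lipid droplets, had 3.04, 2.77 and 3.004 CPM and then 1.08, 1.37 and 1.24 CPM (-1.253), with controls again higher, by 1.06 and 0.67. BTN2A3P, a butyrophilin pseudogene, fell by 0.95 from 11.5 to 12.98 CPM to 5.83 to 6.79 CPM. In these 3 genes the control of SpABE was the highest of the 3 controls.

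CELF3, an RNA-binding splicing regulator, went from 5.37, 6.88 and 5.24 CPM to 3.51, 3.16 and 3.27 CPM (log2 fold change -0.82, against 0.059 and 0.019 in the others). BCHE, butyrylcholinesterase, went from 2.76, 2.62 and 2.78 CPM to 1.20, 1.97 and 1.47 CPM (-0.82), and its controls were close in all editors, with log2 differences of 0.18 and -0.063. The others were HIST1H4H, a histone H4 gene (-0.72), the long noncoding RNA LINC02086 (-1.13) and CYP4F2, a fatty acid hydroxylase (-0.62). CYP4F3, a close paralog of CYP4F2 on chromosome 19 whose reads may be shared, fell by 0.78 with SpABE and rose by 0.61 with SpCBE, a log2 difference of -1.39. Its difference from SaABE was lost without intergenic-guide replicate 1 (log2 difference -0.49) or 2 (-0.54) or NRF1-guide replicate 2 (-0.50). Calls against SaABE were also lost for BCHE without NRF1-guide replicate 1 (-0.59) or 3 (-0.70), and without intergenic-guide replicate 2 or NRF1-guide replicate 3 for HIST1H4H (-0.78 and -0.76) and LINC02086 (-0.71 and -0.80).

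Some large differences came mostly from the other editor. NUPR1, a stress-induced nuclear protein, had 3.62, 4.06 and 3.74 CPM and then 6.13, 6.11 and 4.86 CPM with SpABE (log2 fold change 0.58) and fell with SaABE (-1.68), a log2 difference of 2.26. Its difference from SpCBE, 0.62, lost the call without any intergenic-guide replicate (0.58, 0.67 and 0.61) or without NRF1-guide replicate 1 (0.56) or 2 (0.57). GRIK5, a kainate receptor subunit, did not pass in SpABE (0.23, adjusted p = 0.287) and fell with SaABE (-1.27). MCTS2P, a retrocopy with uncertain reads, did not pass in SpABE either (-0.17, adjusted p = 0.519), and its SpABE groups overlapped, while it rose with SaABE (1.11).

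Gene groups were counted at an adjusted p under 0.05 with no fold limit. By that rule 17.3% of tested genes were lower and 15.4% higher with SpABE, 15.5% lower and 16.9% higher with SaABE, and 12% lower and 11% higher with SpCBE. For differences, the SpABE effect was higher than that in SaABE for 5.33% of genes and lower for 6.37%. Against SpCBE it was higher for 4.54% and lower for 4.42%.

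Immediate-early genes rose together with SpABE. Of 36 tested members 28 rose and 1 fell, with a median log2 fold change of 0.37, and 11 rises and the fall passed the fold limit. With SaABE 16 rose and 1 fell (median 0.19), and with SpCBE 2 rose and 9 fell (median -0.087). The effect was higher than in SaABE for 11 members and lower for 2, and higher than in SpCBE for 22 and lower for 1. Differing from both were 6 members. The summed level went from 1600–1639 to 1919–1943 CPM with SpABE, from 1807–1850 to 1968–2055 CPM with SaABE, and from 1431–1474 to 1353–1404 CPM with SpCBE. FOS, a subunit of the AP-1 transcription factor, rose from 37.1 to 60.3 CPM on average (log2 fold change 0.70, against 0.26 and -0.24). DUSP1, a phosphatase of stress kinases, rose from 49.1 to 80.6 CPM (0.72, against 0.19 and -0.090). CCN1, a secreted matrix protein, rose by 0.74 (0.17 and 0.13) and KLF4, a zinc finger transcription factor, by 0.80 (0.28 and -0.12). The lone fall was BTG2, an antiproliferative gene that p53 also controls (-0.53, against 0.016 and -0.12).

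Heat-shock chaperones had 11 rises and 4 falls among 20 members with SpABE (median 0.10), 12 and 3 with SaABE, and 1 and 5 with SpCBE. The effect was higher than in SaABE for 3 members and lower for 7, and higher than in SpCBE for 7 and lower for 0. Their summed level went from 25530–26150 to 28430–29680 CPM with SpABE. It was higher throughout with SaABE, from 42770–46050 to 48200–51080 CPM, and lower with SpCBE, from 15750–15890 to 14770–15450 CPM. CRYAB and the small heat-shock protein HSPB1 (0.38, against -0.11 and -0.25) rose, as did HSPA1B (0.36), an HSP70 gene with a near-identical copy. HSPA4L, an HSP110 relative, fell in all 3 editors (-0.81, -0.49 and -0.75).

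Targets of the integrated stress response had 17 rises and 4 falls among 30 members (median 0.17), against 10 and 4 with SaABE and 9 and 3 with SpCBE. The effect was higher than in SaABE for 13 members and lower for 4, and higher than in SpCBE for 9 and lower for 3. SLC3A2, the heavy chain of amino acid transporters, rose by 0.38 (-0.049 and -0.076 in the others), PPP1R15A, which directs dephosphorylation of eIF2, by 0.30, and DDIT3, the transcription factor CHOP, by 0.42. Genes of the unfolded protein response had 9 rises and 0 falls among 21 members, against 8 and 2 with SaABE and 1 and 7 with SpCBE. Their effect was higher than in SaABE for 6 and lower for 1, and higher than in SpCBE for 11 and lower for 1. XBP1, a transcription factor of that response, rose by 0.40 and HSPA5, the chaperone BiP, by 0.17. The NF-kB targets had 4 rises and 0 falls among 14 members.

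Genes of G1/S and DNA replication moved the other way. Of 44 members 30 fell and 2 rose with SpABE, with a median log2 fold change of -0.14, against 9 falls and 12 rises with SaABE (median 0.044) and 8 falls and 18 rises with SpCBE (median 0.080). The effect was lower than in SaABE for 22 members and higher for 1, and lower than in SpCBE for 30 and higher for 0. The summed level went from 6879–7022 to 6313–6386 CPM with SpABE. With SaABE it was 6078–6143 and then 6095–6144 CPM, and with SpCBE 6289–6379 and then 6554–6596 CPM. The SpABE control thus stood highest of the 3 controls, and its NRF1-guide libraries lay between those of the other editors.

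Past the fold limit were 3 members, POLA2, UHRF1 and POLD1. UHRF1, which brings DNA methylation to new strands, had a log2 fold change of -0.63 (-0.37 and -0.33 in the others). MCM5, a subunit of the replicative helicase, fell from 283.5 to 200.6 CPM on average (-0.50, against -0.078 and 0.093), and both differences passed edgeR, with adjusted p of 2.94e-07 and 1.05e-09. POLD1, the catalytic subunit of DNA polymerase delta, fell by 0.73 and by 0.74 with SaABE. Genes of G2/M and mitosis had 14 falls and 7 rises among 50 members.

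**Figure D5:**
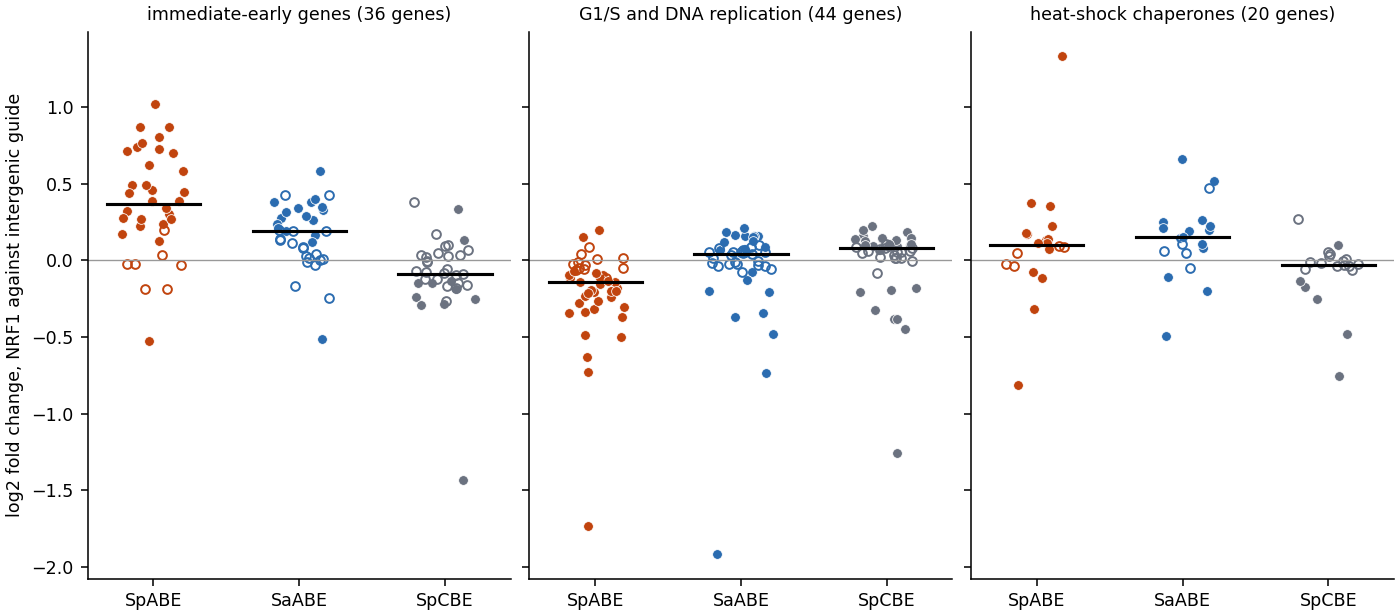
Log2 fold change of each member of 3 gene lists in each editor, filled where the edgeR adjusted p is under 0.05, with lines at the medians. The immediate-early median is 0.37 in SpABE, 0.19 in SaABE and -0.087 in SpCBE, and the G1/S and DNA replication median is below 0 in SpABE alone (-0.14, 0.044 and 0.080).

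With SpABE DNA repair genes fell more often than they rose. Base excision and mismatch repair had 12 falls and 3 rises among 30 tested members, against 11 and 8 with SaABE and 9 and 6 with SpCBE. MPG, the glycosylase that removes alkylated purines and hypoxanthine from DNA, fell from 31.8 to 11.5 CPM on average (log2 fold change -1.47, against -1.48 and -1.30). UNG, which removes uracil, fell by 0.95 (-1.08 and -0.90 in the others). Homologous recombination and Fanconi genes had 11 falls and 2 rises among 28 members, against 8 and 5 with SaABE and 6 and 6 with SpCBE. FANCL, a ubiquitin ligase, stood at -1.04 and RBBP8, which starts end resection, at -0.56, both falling in all 3 editors. PALB2, the partner of BRCA2, fell by 0.65 against -0.21 and -0.25, and both differences passed edgeR, with adjusted p of 0.00019 and 0.000377.

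Among respiratory genes, complex I had 12 rises and 10 falls in 37 members with SpABE, against 18 and 7 with SaABE and 16 and 6 with SpCBE. Complexes II and III had 1 rise and 5 falls in 13, against 4 and 5 with SaABE and 5 and 4 with SpCBE. Complexes IV and V had 15 rises and 2 falls in 30, against 17 and 2 with SaABE and 21 and 0 with SpCBE. SDHA, the flavoprotein of complex II, fell by 0.94 (-0.95 and -0.71 in the others), and NDUFA8 of complex I by 0.84 (-0.85 and -0.76). Of the 13 messages of the mitochondrial genome 5 rose and 0 fell with SpABE, while 0 rose and 7 fell in each other editor. The effect was higher than in SaABE for 6 of them and than in SpCBE for 7, and lower than in either for 0. These counts rest on single libraries: the rises were 2 without intergenic-guide replicate 3 or NRF1-guide replicate 2. Without that NRF1-guide replicate the differences from SaABE and SpCBE were 2 and 2, and without that intergenic-guide replicate those from SpCBE were 4. MT-CO1 had 2146, 2243 and 2038 CPM and then 2298, 2498 and 2291 CPM (log2 fold change 0.14). The summed level of the 13 messages went from 7086–7767 to 7731–8441 CPM with SpABE. With SaABE it was 8501–8900 and then 7399–8516 CPM, and with SpCBE 7217–7639 and then 6432–7141 CPM.

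Ribosomal protein genes of the cytosol had 71 rises and 1 fall in 79 members (median 0.16), and 73 and 75 rises with SaABE and SpCBE. Mitochondrial ribosomal proteins had 17 rises and 9 falls in 78 members, against 39 and 6 with SaABE and 36 and 7 with SpCBE. Mitochondrial gene expression had 6 and 5 in 31, against 16 and 3 with SaABE and 10 and 3 with SpCBE. In that group TRMT10C, a subunit of mitochondrial RNase P, fell (-0.28) and had 0.13 and 0.10 in the others. Textbook NRF1 targets had 3 rises and 6 falls in 23. Members of the BBSome and its chaperonins had 1 rise and 3 falls in 12, and intraflagellar transport 6 and 5 in 21.

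Autophagy and lysosome genes had 16 rises and 6 falls in 35 members, against 12 and 7 with SaABE and 5 and 6 with SpCBE. Targets of p53 had 9 rises and 9 falls in 28 members, hypoxia targets 6 and 7 in 21, and cholesterol synthesis 3 and 5 in 25. Interferon-stimulated genes had 0 rises and 3 falls in 28, among them USP18, an interferon-induced protease (-0.87). Of the nuclear-retained RNAs 1 rose and 2 fell in 4.

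Sites like those of the guides were looked for in hg38 with an NGG PAM and up to 3 mismatches. The NRF1 guide had 0 sites with 1 mismatch, 1 site with 2 and 10 with 3. The site with 2 mismatches lies in an intron of ESR1, whose log2 fold change was -0.25 (adjusted p = 0.609). Of the sites with 3 mismatches 3 lie in an intron of LRRC27, a called gene (log2 fold change -0.81, edgeR adjusted p = 4.21e-06), which had -1.02 and -0.74 with the other editors and their different NRF1 guides. The intergenic guide had 6 sites with 3 mismatches and 0 of them in a called gene. Within 1000000 bases of the NRF1 and intergenic sites, 22 and 7 other genes were tested and 0 of them were called. Over all genes tested 6.41% were called, and 22 and 7 genes are too few to set 0 apart from that share. Editing at any of these sites was not measured here.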

How the data were processed

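Polyadenylated RNA from 18 HEK293T libraries was sequenced after stranded library preparation. Per the study's methods and the submitters' processing notes, the authors used Cutadapt 1.18 for trimming and STAR 2.7.0f in 2 passes for mapping to hg38 with GENCODE 30, and the notes also name DESeq2 1.46.0. Not given in the sources used here are the counting program and its strand setting, so near-identical, antisense and overlapping genes are uncertain. The authors deposited estimated counts per gene without normalization. Of the 36 sample columns 18 were not used. Estimated counts were rounded, although whole counts had been planned for, and 19.63% of nonzero values were not whole.

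Genes were kept by edgeR's filterByExpr (17743 of 58870) and scaled by TMM. Quasi-likelihood tests (edgeR 4.0.16, R 4.3.3, Benjamini-Hochberg adjustment) used 6 group means over all 18 libraries. Called genes had an adjusted p below 0.05 and a log2 fold change beyond 0.5 in either direction. Library pairs within both SpABE groups differed beyond sampling noise (chi-square per degree of freedom 2.11 to 3.91), so each counted once. Steps were tested on simulated data.

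Named genes were NRF1, PUDP, ANKRD26, YEATS4, the 15 largest falls and rises called at 5 CPM or more without overlap, the 8 largest differences from both editors in each direction and the 3 largest from each at 2 CPM or more, none with clone names, and up to 4 members per list by p. Members and lists were chosen with earlier results of these data known. Alternatives were DESeq2 1.42.0, other scalings and filters, fits of fewer libraries, a replicate block and leaving out each library.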

Additional observations from a re-analysis of the deposited data

Results flagged for a closer look

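Each value here is a difference between the SpABE effect and the effect of the same contrast in another editor, and each was picked out because edgeR's test of the difference itself passed at an adjusted p under 0.05 and a log2 difference over 0.5. The SpABE effect differed from the SaABE effect for 277 genes, from the SpCBE effect for 253 and from both for 76.

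The log2 differences from SaABE and then from SpCBE were 2.60 and 1.55 for HSPB8, 1.22 and 1.11 for GEM, 1.04 and 1.44 for SOCS3, and 1.04 and 1.16 for DUSP5. They were 0.987 and 1.07 for TMEM179, 0.947 and 1.29 for SH2D3C, 0.889 and 1.251 for HMOX1, and 1.13 and 0.886 for TMEM183B. CRYAB had 0.811 and 1.06, EGR3 0.635 and 1.18, ZNF296 0.797 and 0.954, and HSPA7 0.893 and 0.839.

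Below both other editors, the log2 differences from SaABE and then from SpCBE were -1.27 and -1.80 for LRRTM2, -1.176 and -1.165 for PLIN4, -0.864 and -0.951 for BTN2A3P, and -0.878 and -0.838 for CELF3. They were -0.826 and -0.847 for HIST1H4H, -0.814 and -1.37 for LINC02086, -0.739 and -0.832 for BCHE, and -0.655 and -1.05 for CYP4F2.

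Among the largest differences from 1 editor were 2.26 from SaABE for NUPR1 and -1.39 from SpCBE for CYP4F3, both of which also passed against the other editor, and from SaABE alone 1.501 for GRIK5 and -1.28 for MCTS2P.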

How the results depend on the processing

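Of the 31 named fold changes other than that of NRF1, 30 kept their direction and call under every alternative that gave a value, HIST2H2AA3 being the exception. Of 40 named differences 34 did. NRF1, not called in the main fit, passed both limits without NRF1-guide replicate 1 (0.5003). DESeq2 gave no adjusted p for the differences of LRRTM2, PLIN4 and GRIK5 from SaABE. No value reversed. DESeq2 gave 179 genes differing from SaABE and 4 mitochondrial messages with a higher effect than in SpCBE. With no filter beyond 1 count, 420 genes differed from SaABE and 135 from both. In that fit 11 mitochondrial messages had a higher effect than in SaABE and 11 than in SpCBE. In the fit of 2 editors BCHE lost its call against SaABE (-0.73). The cause of these changes was not tested. Counts over gene lists under the alternatives were added after seeing the data.

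Leaving out 1 library at a time gave 795 to 828 falls, 245 to 312 rises, 205 to 290 genes differing from SaABE, 208 to 246 from SpCBE and 62 to 82 from both. NRF1 ranged from 0.3858 to 0.5003. Mitochondrial messages that rose numbered 2 to 5, those with a higher effect than in SaABE 2 to 6 and than in SpCBE 2 to 7.

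The replicate numbers were not taken to pair the libraries. Same-numbered libraries of the SpABE guides had correlations of -0.0134, -0.0233 and -0.0162 over all genes tested, and of 0.227, 0.174 and 0.176 over 4870 genes of at least 50 CPM, where 6 of 6 libraries correlated best with their own number, a hint from the data and not the design. With the replicate block 831 genes fell, 296 rose, 272 differed from SaABE, 246 from SpCBE and 76 from both, and NRF1 stood at 0.45. The counts of called genes thus shifted slightly, while no named fold change or named difference changed its call. Depth limits genes near 2 CPM, and counts cannot show editing or exon use.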
